A study of Sus scrofa with 31 samples.

Results

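A library of pig heart tissue (Sus scrofa) kept for 24 h in the condition labelled SCS and then perfused warm for 2 h was compared with the 2 libraries kept for 24 h in the condition labelled HOPE and perfused in the same way. These 3 libraries were taken by their labels from 31 in the series. The genes removed in the rescaling described below were picked by their level in the SCS+NMP library. SCS and HOPE are not spelled out in the labels, and in heart preservation they usually stand for static cold storage and hypothermic oxygenated perfusion. The warm step, NMP, is normothermic machine perfusion, in which a perfusate near body temperature is pumped through the organ. The 4 other HOPE+NMP libraries, 2 after 3 h and 2 after 48 h of storage, were used to show how far perfused hearts vary, so each value of the SCS+NMP library is set beside the range of 6 HOPE+NMP libraries. A further 24 libraries of the series came from hearts biopsied without NMP, before or during cold storage. Among them, 3 SCS and 3 HOPE hearts at 24 h are given beside the perfused ones at the end. The labels name no genotype, strain, age, sex or drug for any group. The biopsies were frozen at the end of each experiment. The labels call the cell type cardiomyocytes, but the tissue is whole myocardium, which also holds vessels, connective tissue and blood.

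The heart muscle cell spends most of its messenger RNA on the sarcomere, the contractile lattice of myosin, actin and troponin, and on the mitochondria that supply its ATP. Without blood flow, oxidative phosphorylation stops, and when flow and warmth return the cell meets oxidants, calcium overload and misfolded proteins. Cells answer protein damage through heat shock factors, which switch on chaperones such as the HSP70 and HSP90 families and their DNAJ partners. Another early answer is the burst of immediate early transcription factors (FOS, EGR1 and relatives), which are made without prior protein synthesis. Inflammatory and interferon-driven genes usually follow. The comparison asks which of these programs stand at another level in the warmed heart when storage was static.

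There was no other SCS+NMP library, so no difference given here has a replicate check on the SCS side. Values are TPM (a length-corrected share of the library scaled to 1000000), which the authors had already divided by gene length and library total, and the sequencing depth behind them is unknown. Log2 differences are on the log2(TPM + 1) scale, SCS+NMP minus the mean of the 2 HOPE+NMP 24 h libraries, with the standard error (SE). The limma model takes its error from the spread within the HOPE pairs and assumes that the lone SCS library would vary as much. Nothing in the labels says that replicates came from separate animals, so the p-values measure the spread between these samples only. Ranked against the 6 HOPE libraries alone, a single library cannot do better than an exact one-sided permutation p of 0.143.

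The SCS+NMP library stood apart from the other perfused libraries as a whole. Its Spearman correlation with the 6 HOPE+NMP libraries across genes was 0.49 to 0.70, while the 15 pairs of HOPE+NMP libraries correlated at 0.80 to 0.92. It cannot be left out, since it is the only library of its group, and every result below rests on it. The number of genes at 1 TPM or more was 10232, inside the HOPE+NMP range of 10165 to 11243.

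The make-up of the library differed. The 13 mitochondrially encoded genes, whose products are core parts of complexes I, III, IV and ATP synthase, held 54.7% of its TPM, above the 39.8% to 51.1% of the 6 HOPE+NMP libraries. The 2 most abundant other genes, which have no symbol in the tables used here, took 15.5%, against 0.534% and 0.57% in the HOPE+NMP 24 h libraries and 2.37% in the highest HOPE+NMP library. One of them (ENSSSCG00000025162) stood at 95159 TPM in SCS+NMP and at 3150 and 3468 TPM in HOPE+NMP 24 h. The other (ENSSSCG00000021356) stood at 60094 TPM in SCS+NMP and at 2186 and 2236 TPM in HOPE+NMP 24 h. Both were also higher in the 48 h than in the 24 h HOPE libraries, at 14167 and 9125 TPM for the first and 9571 and 6879 TPM for the second. The 3 h HOPE libraries lay above the 24 h libraries as well, at 5615 and 6435 TPM and at 4041 and 4610 TPM. All genes outside these 15 shared 29.7% of the SCS+NMP library and 47.8% to 59.6% of the HOPE+NMP libraries.

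**Figure D1:**
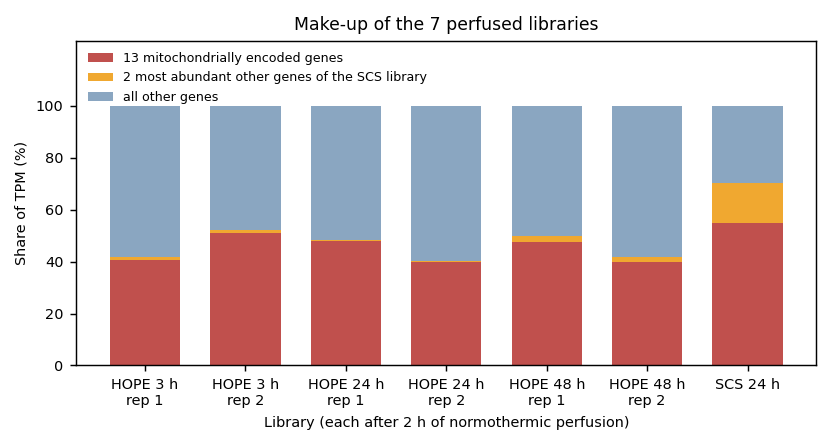
Stacked bars give the share of TPM, in percent, held by the 13 mitochondrially encoded genes, by the 2 most abundant other genes of the SCS library and by all other genes, for each of 7 libraries taken after 2 h of normothermic perfusion. In the SCS bar the last share is 29.7%, the smallest of the 7, and the share of the 2 abundant genes is 15.5%.

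Because TPM sums to the same total in every library, a gene can be lower in TPM only because others take more. All comparisons were therefore repeated after the 13 mitochondrially encoded genes and those 2 genes had been removed and the rest of each library rescaled to 1000000, which is called rescaled TPM here. The median log2 difference over all tested genes was -1.12 as deposited and -0.29 after rescaling. List medians are given both ways and are to be read against these 2 values. The lists name 815 different genes, of which 570 were found in the table by symbol and 399 were tested.

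As deposited, 4388 genes had a mean of at least 10 TPM over the 7 libraries and were tested. Of these, limma called 106 higher (2.42%) and 2272 lower (51.8%) in SCS+NMP at an adjusted p under 0.05 (Benjamini-Hochberg). After rescaling, 282 of 4373 genes (6.45%) were called higher and 920 (21%) lower. The share of calls that were higher thus moved from 4.46% as deposited to 23.5% after rescaling, and was 25.1% with median-ratio scaling and 45.7% with quantile normalization. In all, 102 genes were called higher and 920 lower both as deposited and after rescaling. The counts as deposited rested on both HOPE+NMP 24 h libraries. They were 58 higher and 1511 lower without replicate 1 and 52 higher and 1201 lower without replicate 2.

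Set against the range of the 6 HOPE+NMP libraries, which needs no model, 385 tested genes (8.77%) lay above the highest and 2916 (66.5%) below the lowest library as deposited. After rescaling, 1220 genes (27.9%) lay above and 1751 (40%) below. At least 2-fold higher than the HOPE+NMP 24 h mean were 161 genes (3.67%) as deposited and 501 (11.5%) after rescaling. At least 2-fold lower were 2452 genes (55.9%) as deposited and 1139 (26%) after rescaling.

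The genes of the contractile apparatus were lower in the SCS+NMP library, and after rescaling they had the lowest median of all lists with 3 or more tested genes. Of 22 tested sarcomere and Z disc genes, 21 were called lower both as deposited and after rescaling, and none was called higher. Below all 6 HOPE+NMP libraries lay 21 as well. Over all tested genes, 51.8% were called lower as deposited and 21% after rescaling, and 66.5% and 40% lay below those libraries. The list's median log2 difference was -4.68 as deposited and -3.87 after rescaling. Their summed TPM was 4815 in SCS+NMP, 83507 and 106695 in HOPE+NMP 24 h, and 75479 to 118339 over the 6 HOPE+NMP libraries. In a bulk biopsy, fewer heart muscle cells and less RNA per cell cannot be told apart. With a single SCS+NMP library, neither can be told from a trait of that library alone.

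Cardiac troponin, the calcium switch of the thin filament, shows the size of the difference in its most abundant genes. Troponin I (TNNI3) stood at 13598 and 14172 TPM in HOPE+NMP 24 h and at 836 TPM in SCS+NMP, a log2 difference of -4.05 ± 0.26 (SE, adjusted p = 0.000271), or -3.16 after rescaling. Troponin T (TNNT2) stood at 14277 and 20284 TPM against 761 TPM, a log2 difference of -4.48. Troponin C (TNNC1) stood at 10847 and 14809 TPM against 1026 TPM. For all 3 the SCS+NMP value lay far below the lowest of the 6 HOPE+NMP libraries, which was 12953, 12074 and 10435 TPM in the same order, while the 3 genes were still well detected.

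Some thick filament and Z disc genes differed more than the troponin genes. MYH7, the slow beta myosin heavy chain of the ventricle, stood at 2414 and 3389 TPM in HOPE+NMP 24 h and at 62 TPM in SCS+NMP (log2 -5.50 ± 0.43, adjusted p = 0.000317, and -4.62 after rescaling). MYBPC3, its binding protein, stood at 1057 and 985 TPM against 32.9 TPM. ACTN2, the actinin that anchors actin at the Z disc, stood at 659 and 788 TPM against 16.9 TPM. In each of the 3 the SCS+NMP value lay below all 6 HOPE+NMP libraries.

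The largest difference in the sarcomere list was in FLNC, filamin C, an actin crosslinker of the Z disc, on chromosome 18 from 19759734 to 19787616 in Sscrofa11.1. It stood at 1792 and 1393 TPM in HOPE+NMP 24 h and at 11.4 TPM in SCS+NMP, a log2 difference of -7.00 ± 0.64 (adjusted p = 0.000341) and of -6.18 after rescaling. CSRP3, the muscle LIM protein of the Z disc, stood at 2615 and 3943 TPM against 41 TPM (log2 -6.26). LMOD2, a leiomodin that lengthens thin filaments, stood at 728 and 972 TPM against 16 TPM (log2 -5.63). MYPN, a Z disc scaffold, stood at 33.7 and 37.3 TPM against 0.402 TPM (log2 -4.70). The differences within the list ranged from -7.00 for FLNC to -1.48 for MYL4, an atrial light chain and the 1 member inside the HOPE range. MYL4 itself varied from 2.03 to 36.2 TPM among HOPE libraries and did not pass (adjusted p = 0.336); its difference turned to 0.04 with quantile normalization. NEBL, nebulette, was the member called lower with the smallest difference, at 529 and 647 TPM against 142 TPM (log2 -2.04).

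**Figure D2:**
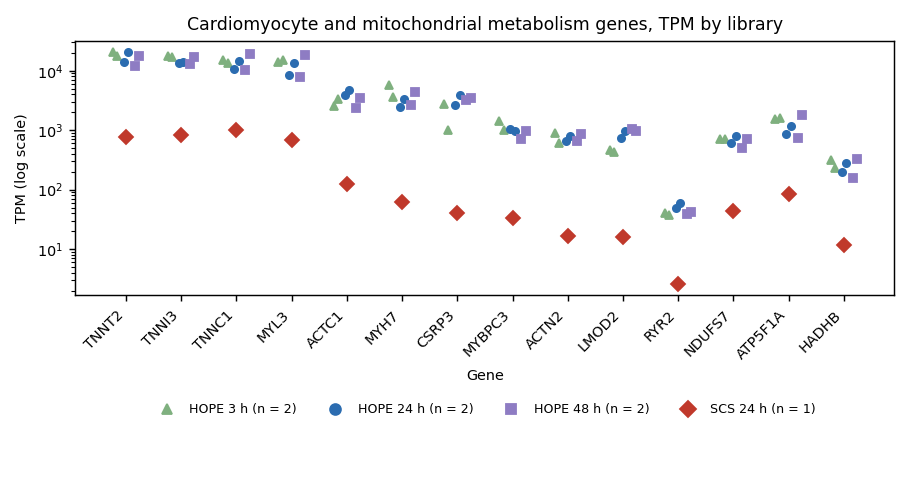
Points give TPM on a log scale for 14 genes of the sarcomere, calcium release and mitochondrial metabolism in each of 7 libraries, with triangles for HOPE 3 h, circles for HOPE 24 h, squares for HOPE 48 h and the red diamond for the single SCS 24 h library. In all 14 genes the diamond lies below the 6 other points, as in TNNI3 with 836 TPM against at least 12953 TPM.

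Ventricular cardiomyocyte markers were used to check the labelled cell type. Lower calls made up 51.8% of all tested genes as deposited and 21% after rescaling. Of 13 listed markers, 8 were tested, and all 8 were called lower both ways and lay below the 6 HOPE+NMP libraries. The markers had a median log2 difference of -4.70 as deposited and -3.81 after rescaling. Beside the sarcomere genes above, they included CKMT2, the mitochondrial creatine kinase, at 473 and 745 TPM against 13.5 TPM. The 10 markers found summed to 2405 TPM in SCS+NMP and to 37549 to 61114 TPM in the HOPE+NMP libraries, so the tissue carried its defining transcripts in every library, at a lower level in SCS+NMP.

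Most genes that respond to stretch and load in the myocardium were lower too, although this list shares MYH7, CSRP3 and ACTA1 with the sarcomere list. Of 11 tested genes, 7 were called lower as deposited and 6 after rescaling, beside 51.8% and 21% of all tested genes. The median log2 difference of the list was -4.72 as deposited and -3.82 after rescaling. The 2 members with a positive difference, neither of which passed, were TIMP1, an inhibitor of matrix metalloproteinases (log2 0.66 as deposited and 1.56 after rescaling), and POSTN, periostin (log2 0.43 and 1.33). Both lay above the HOPE+NMP range after rescaling. ANKRD1, a stretch-responsive ankyrin repeat protein of the titin complex, stood at 5800 and 6508 TPM in HOPE+NMP 24 h and at 66.9 TPM in SCS+NMP (log2 -6.50 ± 0.58, adjusted p = 0.000336). Its relative ANKRD2 stood at 53.6 and 92.3 TPM against 0.133 TPM, but HOPE 3 h replicate 2 held only 1.86 TPM. The natriuretic peptide gene NPPB, a standard sign of wall stress, stood at 124 and 102 TPM against 1.59 TPM and was called lower as deposited (adjusted p = 0.0457), but not without HOPE+NMP 24 h replicate 1 or 2 (adjusted p = 0.0626 and 0.0613). After rescaling NPPB did not pass (adjusted p = 0.15), and HOPE 3 h replicate 2 was lower than the SCS+NMP library, at 1.06 TPM. Its neighbour NPPA did not pass either way, at 30.8 and 28.6 TPM against 1.15 TPM. Another 2 entries, both non-coding, were listed at 0 in SCS+NMP, the heart microRNA precursor ssc-mir-208b, at 8.32 to 149 TPM in HOPE+NMP, and RF00439, at 8.63 to 59.5 TPM.

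Calcium handling genes were lower as well. Of 12 tested, 11 were called lower as deposited and 10 after rescaling, beside 51.8% and 21% of all tested genes. The list medians were -3.01 and -2.32. RYR2, the calcium release channel of the sarcoplasmic reticulum, stood at 49.4 and 60.5 TPM in HOPE+NMP 24 h and at 2.63 TPM in SCS+NMP (log2 -3.94 ± 0.32, adjusted p = 0.000327, and -3.34 after rescaling). CASQ2, the calcium buffer of that store, stood at 68.6 and 61.9 TPM against 2.13 TPM, and HRC, a histidine-rich calcium-binding protein of the same store, at 170 and 217 TPM against 6.21 TPM. JPH1, a junctophilin that tethers the store to the cell membrane, was not on the list and was named by its small p; it stood at 61.1 and 55.9 TPM against 0.706 TPM. KCNH2, a repolarizing potassium channel, stood at 15.1 and 17.3 TPM against 1.13 TPM.

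Nuclear genes for oxidative phosphorylation were lower together, in contrast to the mitochondrially encoded subunits of the same complexes. Called lower were 51.8% of all tested genes as deposited and 21% after rescaling, while 66.5% and 40% lay below the HOPE+NMP range. Of 23 tested complex I genes, 22 were called lower both ways and all 23 lay below the HOPE+NMP range, with a median log2 difference of -3.30 as deposited and -2.50 after rescaling. Of 15 tested genes of complexes II, III and IV, 15 were called lower as deposited and 13 after rescaling (medians -3.39 and -2.52). All 7 tested ATP synthase genes were called lower both ways (medians -3.43 and -2.55). NDUFS7, an iron-sulfur subunit of complex I, stood at 621 and 793 TPM in HOPE+NMP 24 h and at 44 TPM in SCS+NMP (log2 -3.97 ± 0.38, adjusted p = 0.000373). COX5B, a subunit of cytochrome oxidase, stood at 1097 and 1549 TPM against 91.6 TPM, and ATP5F1A, the alpha subunit of ATP synthase, at 865 and 1198 TPM against 83.8 TPM.

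Among the 13 mitochondrially encoded genes, 6 lay above the HOPE+NMP range and 1 below it as deposited, and the median log2 difference was 0.20. None was called higher by limma (2 at an unadjusted p under 0.05). ATP6, the most abundant gene of the library, stood at 107508 and 84046 TPM in HOPE+NMP 24 h and at 137576 TPM in SCS+NMP (log2 0.53 ± 0.22, adjusted p = 0.0713). ND3, a complex I subunit, stood at 10485 and 10191 TPM against 16906 TPM (log2 0.71, adjusted p = 0.0512). ND4L, another complex I subunit, was the 1 member called lower, at 7812 and 8262 TPM against 4574 TPM (log2 -0.81, adjusted p = 0.0314), a difference that came to 0.00 with median-ratio scaling and did not pass without HOPE+NMP 24 h replicate 1 or 2 (adjusted p = 0.114 and 0.155).

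Fuel metabolism showed the same direction as the nuclear respiratory genes. The shares of all tested genes called lower were 51.8% as deposited and 21% after rescaling. All 16 tested genes of the tricarboxylic acid cycle were called lower as deposited and 15 after rescaling (medians -3.06 and -2.30), and all 13 tested genes of fatty acid uptake and oxidation as deposited and 12 after rescaling (medians -3.31 and -2.48). HADHB, a subunit of the trifunctional protein of beta-oxidation, stood at 201 and 283 TPM in HOPE+NMP 24 h and at 11.6 TPM in SCS+NMP (log2 -4.25 ± 0.50, adjusted p = 0.000714). PDHA1, the entry enzyme from pyruvate, stood at 151 and 231 TPM against 12.5 TPM. Of 14 tested glycolysis genes, 10 were called lower as deposited and 9 after rescaling (medians -2.43 and -1.56), and none was called higher. All 14 differences were negative as deposited and 11 after rescaling. The muscle isoforms PFKM and ENO3 were among those called lower. PFKM stood at 89.4 and 90.2 TPM against 6.84 TPM, and ENO3 at 1473 and 1589 TPM against 112 TPM. GAPDH, often used as a reference gene, stood at 7801 and 7860 TPM against 576 TPM (log2 -3.76 ± 0.26, adjusted p = 0.000271, and -2.87 after rescaling).

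**Figure D3:**
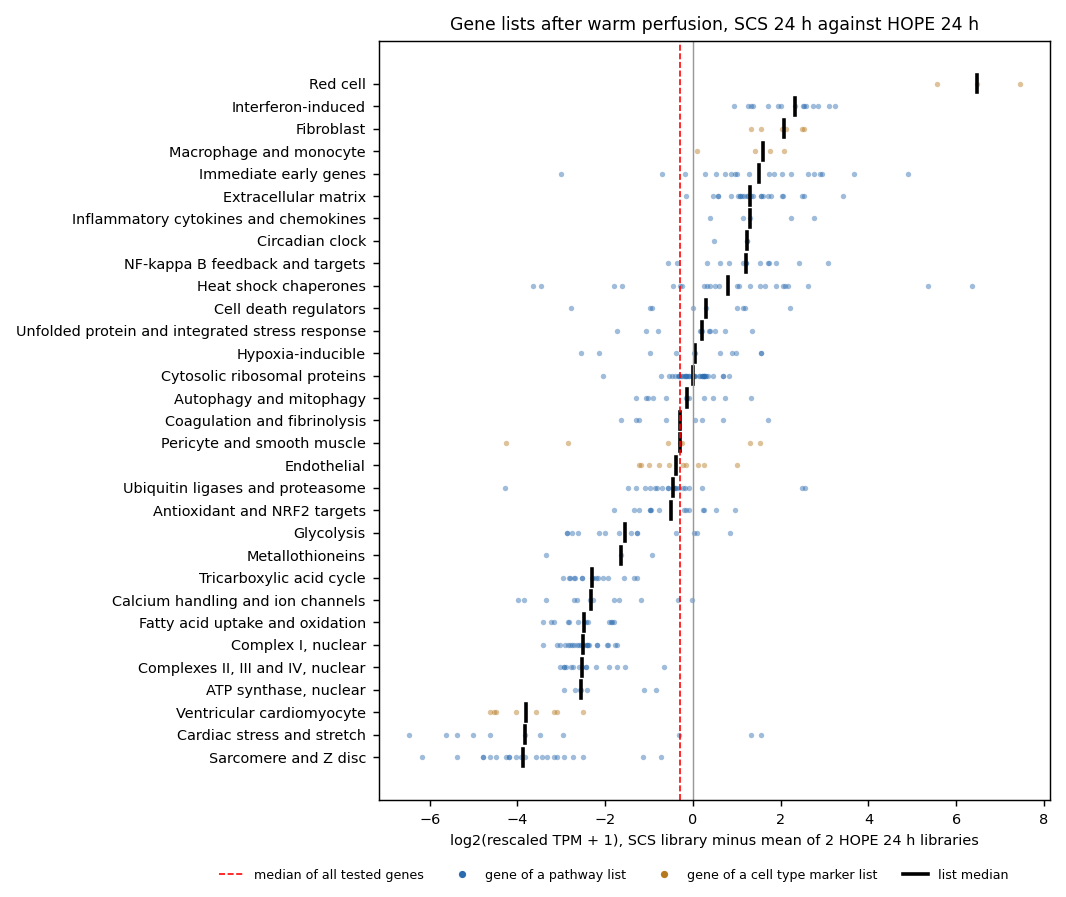
Each point is the log2 difference of 1 tested gene after rescaling, SCS library minus the mean of 2 HOPE 24 h libraries, for lists with 3 or more tested genes; black bars are list medians and the dashed line is the median of all tested genes (-0.29). Sarcomere genes have the lowest list median (-3.87), red cell genes the highest (6.48), and the heat shock chaperones spread from -3.65 to 6.37.

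Heat shock chaperones split in both directions. Of 24 tested, 5 were called higher and 7 lower as deposited, and 10 higher and 4 lower after rescaling. Over all tested genes, 2.42% were called higher and 51.8% lower as deposited, and 6.45% and 21% after rescaling. The list thus held a larger share of higher calls and a smaller share of lower calls than all tested genes. The list median was -0.09 as deposited and 0.80 after rescaling, so its sign depended on the scaling, and it was also positive, at 0.08, without HOPE+NMP 24 h replicate 2. The summed TPM of the list was 6543 in SCS+NMP, above the 2451 to 4031 TPM of the 6 HOPE+NMP libraries. By symbol, 27 of the 37 listed chaperones were found. The HSP70 genes HSPA1A, HSPA1B and HSPA6 were among those not found, as were HSPB1 and CRYAB, so the list says nothing of them.

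DNAJB1, the DNAJ partner that feeds clients to HSP70 and a classic target of heat shock factor, lies on chromosome 2 from 64761672 to 64764482 in Sscrofa11.1. It stood at 30.5 and 39.8 TPM in the HOPE 3 h libraries, 44.5 and 55 TPM in HOPE 24 h, 128 and 38.2 TPM in HOPE 48 h, and 2225 TPM in SCS+NMP. The log2 difference from HOPE+NMP 24 h was 5.46 ± 0.64 (SE, adjusted p = 0.000687), and 6.37 after rescaling. HSPH1, the HSP110 nucleotide exchange factor of HSP70, stood at 26.8 and 27.9 TPM against 614 TPM (log2 4.44 ± 0.40, adjusted p = 0.000336), with no HOPE+NMP library above 37 TPM. ZFAND2A, a zinc finger protein of the proteasome that is itself heat shock inducible, was not on the list; it stood at 13.1 and 14.9 TPM against 320 TPM (log2 4.42 ± 0.31, adjusted p = 0.000271). The SCS+NMP value was 17.4 times the highest HOPE+NMP value in DNAJB1, 16.6 times in HSPH1 and 15.2 times in ZFAND2A.

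Other cytosolic chaperones of the same system were higher by less. DNAJA1, another DNAJ partner, stood at 150 and 181 TPM in HOPE+NMP 24 h and 550 TPM in SCS+NMP (log2 1.73, adjusted p = 0.00698). HSP90AA1, the inducible HSP90, stood at 416 and 526 TPM against 1081 TPM (log2 1.21, adjusted p = 0.025), and HSPA8, the constitutive HSP70, at 62.8 and 111 TPM against 202 TPM (log2 1.27, adjusted p = 0.0422). CHORDC1, an HSP90 cochaperone, and BAG3, a cochaperone that links HSP70 to autophagy, passed only after rescaling (log2 2.06 and 1.64), and CHORDC1 reached the minimum mean of 10 TPM only through the SCS+NMP library. Without CHORDC1 the list median was -0.29 as deposited and 0.60 after rescaling, with 9 of 23 called higher after rescaling. HSPA5, the HSP70 of the endoplasmic reticulum, likewise passed only after rescaling (log2 1.53). All 6 of these genes lay above the HOPE+NMP range both ways. Without HOPE+NMP 24 h replicate 1, HSP90AA1 and HSPA8 no longer passed as deposited (adjusted p = 0.145 and 0.23), nor did HSP90AA1 without replicate 2 (adjusted p = 0.0749).

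The chaperones that were lower included muscle-enriched small heat shock proteins. HSPB8, which works with BAG3 in muscle, stood at 438 and 846 TPM in HOPE+NMP 24 h and at 29.4 TPM in SCS+NMP (log2 -4.33 ± 0.48, adjusted p = 0.000588). HSPB6, a small heat shock protein of heart and smooth muscle, stood at 53.1 TPM in both HOPE+NMP 24 h libraries and at 8.05 TPM in SCS+NMP. DNAJB5 stood at 106 and 129 TPM against 4.73 TPM (log2 -4.37), and the transcription factor HSF2 at 16.2 and 19.1 TPM against 2.88 TPM. All 4 were called lower both ways.

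UBB, which encodes a chain of ubiquitin, the tag for degradation, was called higher both ways. It stood at 1331 and 1734 TPM in HOPE+NMP 24 h and at 4801 TPM in SCS+NMP (log2 1.66, adjusted p = 0.00543). In the list of ubiquitin ligases and proteasome subunits, 16 of 21 tested genes were called lower as deposited and 5 after rescaling (medians -1.32 and -0.46), beside 51.8% and 21% of all tested genes and medians of -1.12 and -0.29. Members called higher were 2 as deposited and 2 after rescaling, beside 2.42% and 6.45% of all tested genes. Those called lower after rescaling included the proteasome subunits PSMB6 and PSMB7 (log2 -1.47 and -1.30) and TRIM63, a muscle-specific ubiquitin ligase that stood at 186 and 235 TPM against 5.45 TPM. Of 11 tested genes of the unfolded protein and integrated stress response, none was called higher and 2 lower as deposited, and 1 each way after rescaling (medians -0.67 and 0.21, a sign that depended on the scaling).

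Several immediate early genes were called higher and 1 was called lower. Of 20 tested, 5 were called higher and 1 lower as deposited, and 6 higher and 1 lower after rescaling. Higher calls made up 2.42% and 6.45% of all tested genes, and lower calls 51.8% and 21%. The difference was negative in 7 members as deposited and in 3 after rescaling. Above the HOPE+NMP range lay 9 as deposited and 16 after rescaling, beside 8.77% and 27.9% of all tested genes. The list median was 0.61 as deposited and 1.50 after rescaling. FOS, a subunit of the AP-1 transcription factor, stood at 71.1 and 116 TPM in HOPE+NMP 24 h and at 1450 TPM in SCS+NMP (log2 3.98 ± 0.97, adjusted p = 0.0113). FOS also varied among the HOPE libraries, with 586 TPM in HOPE 48 h replicate 1 and 55.6 to 116 TPM in the 5 others. KLF4, a zinc finger transcription factor, stood at 22.7 and 45.3 TPM against 222 TPM (log2 2.75, adjusted p = 0.00765). EGR1 stood at 187 and 263 TPM against 737 TPM (log2 1.73, adjusted p = 0.0263), close to the 627 TPM of HOPE 48 h replicate 1. PPP1R15A, the phosphatase subunit that ends the integrated stress response, stood at 87.5 and 135 TPM against 394 TPM (log2 1.85, adjusted p = 0.0209). EGR1 and PPP1R15A did not pass without HOPE+NMP 24 h replicate 1 (adjusted p = 0.0982 and 0.0864).

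IER2 did not pass either way, at 79.9 and 64.5 TPM against 298 TPM (adjusted p = 0.06 as deposited and 0.0555 after rescaling), nor did ATF3, a stress-induced repressor, at 167 and 277 TPM against 469 TPM. IER3, an early gene with a role in survival signalling, was lower, with 1180 and 1779 TPM in HOPE+NMP 24 h and 96.8 TPM in SCS+NMP (log2 -3.89 ± 0.51, adjusted p = 0.00103). SERPINB2, the inhibitor of plasminogen activators, was no list member and had the lowest log2 difference of the genes with a symbol that lay below the HOPE+NMP range. It stood at 800 and 1453 TPM in HOPE+NMP 24 h and at 5.02 TPM in SCS+NMP (log2 -7.49 ± 1.03, adjusted p = 0.00122), with 90.8 TPM in the lowest HOPE+NMP library. HABP2, a hyaluronan-binding serine protease, stood at 119 and 214 TPM against 2.94 TPM (log2 -5.35), and GPAT3, an acyltransferase of triglyceride synthesis, at 101 and 92 TPM against 3.37 TPM (log2 -4.48). DYRK3, a kinase that dissolves stress granules, was higher, at 8.56 and 7.53 TPM against 53.6 TPM (log2 2.60, adjusted p = 0.00393).

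**Figure D4:**
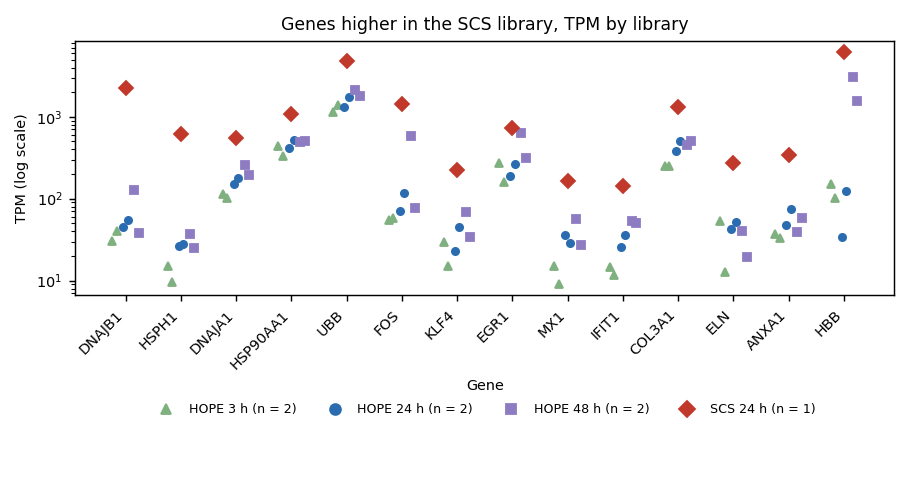
Points give TPM on a log scale for 14 genes in each of 7 libraries, with triangles for HOPE 3 h, circles for HOPE 24 h, squares for HOPE 48 h and the red diamond for the single SCS 24 h library. The diamond is the highest point in each gene; the gap is wide for DNAJB1 (2225 TPM against at most 128 TPM) and narrow for EGR1 (737 TPM against at most 627 TPM).

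Interferon-induced genes were higher in most tested members. Of 15 tested, 8 were called higher as deposited and 13 after rescaling (2.42% and 6.45% of all tested genes), and none was called lower. Above the HOPE+NMP range lay 14 as deposited and 15 after rescaling, beside 8.77% and 27.9% of all tested genes. IFIH1 and DDX58, sensors of viral RNA, and USP18, a brake on interferon signalling, reached the minimum mean only through the SCS+NMP library, and IFIH1, the 1 of these called higher as deposited, did not pass without HOPE+NMP 24 h replicate 1 or 2 (adjusted p = 0.101 and 0.0726). Of the 12 others, 7 were called higher as deposited and 10 after rescaling, 11 and 12 lay above the range, and the medians were 1.32 and 2.23. The list median was 1.41 as deposited and 2.33 after rescaling, and the summed TPM was 1101 in SCS+NMP and 153 to 474 in the HOPE+NMP libraries. MX1, a GTPase that blocks viral replication, stood at 35.8 and 28.9 TPM in HOPE+NMP 24 h and at 165 TPM in SCS+NMP (log2 2.32 ± 0.49, adjusted p = 0.00692). IFIT1, which binds foreign RNA, stood at 25.4 and 36.2 TPM against 142 TPM (log2 2.19 ± 0.36, adjusted p = 0.00255), and OAS2, an oligoadenylate synthetase, at 32.9 and 25.3 TPM against 113 TPM. RSAD2 and IFI44L, both antiviral effectors, were called higher as well (log2 1.62 and 1.60), although RSAD2 did not pass without HOPE+NMP 24 h replicate 2 (log2 1.05, adjusted p = 0.122). GPR183, an oxysterol receptor that guides immune cells, and PLAC8, a cysteine-rich protein of leukocytes and epithelia, were on no list and were called higher. GPR183 stood at 13.8 and 16 TPM against 67.7 TPM (log2 2.12, adjusted p = 0.00298) and PLAC8 at 20.8 and 6.2 TPM against 74.2 TPM (log2 2.59, adjusted p = 0.0147).

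Targets of NF-kappa B were higher in fewer members. Of 14 tested, 1 was called higher and 1 lower as deposited, and 3 higher and none lower after rescaling (medians 0.30 and 1.20). Above the HOPE+NMP range lay 6 as deposited and 12 after rescaling, beside 8.77% and 27.9% of all tested genes. IRF1, a transcription factor of the interferon response, was the 1 called higher both ways, at 133 and 102 TPM in HOPE+NMP 24 h and 533 TPM in SCS+NMP (log2 2.18, adjusted p = 0.0227), with 335 TPM in HOPE 48 h replicate 1. Without HOPE+NMP 24 h replicate 2, IRF1 did not pass (adjusted p = 0.0713). SOCS1, the feedback inhibitor of cytokine signalling, passed only after rescaling (log2 2.42, adjusted p = 0.0388). None of 5 tested cytokines and chemokines was called by limma either way (medians 0.40 and 1.29; 1 higher as deposited and 2 after rescaling at an unadjusted p under 0.05). The neutrophil attractant CXCL2 stood at 400 and 180 TPM against 974 TPM and reached 1050 TPM in HOPE 48 h replicate 1, so it lay inside the HOPE range as deposited, though CXCL2 passed without HOPE+NMP 24 h replicate 1 (adjusted p = 0.0462). CCL2, the monocyte attractant, stood at 2114 and 1332 TPM against 2207 TPM, also inside that range. After rescaling both lay above all 6 HOPE+NMP libraries, CXCL2 at 3275 against at most 2090 rescaled TPM and CCL2 at 7423 against at most 4940.

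Genes of the extracellular matrix were higher in part. Of 24 tested, 5 were called higher as deposited and 11 after rescaling (2.42% and 6.45% of all tested genes), none was called lower, and the medians were 0.39 and 1.29. Above the HOPE+NMP range lay 16 as deposited and 23 after rescaling, beside 8.77% and 27.9% of all tested genes. COL14A1, a collagen of fibril surfaces, was called higher both ways but reached the minimum mean only through the SCS+NMP library, and without it 4 and 10 of 23 were called higher. COL14A1 itself did not pass as deposited without HOPE+NMP 24 h replicate 1 or 2 (adjusted p = 0.134 and 0.109). ELN, elastin, stood at 42.5 and 51.9 TPM in HOPE+NMP 24 h and at 274 TPM in SCS+NMP (log2 2.52 ± 0.76, adjusted p = 0.0248). COL1A2 and COL3A1, the fibrillar collagen chains, stood at 113 and 150 TPM against 405 TPM (log2 1.63, adjusted p = 0.00829) and at 378 and 508 TPM against 1308 TPM (log2 1.58, adjusted p = 0.0085). DCN, decorin, stood at 310 and 439 TPM against 811 TPM (log2 1.13, adjusted p = 0.0348). Without HOPE+NMP 24 h replicate 1 none of these 4 passed as deposited (adjusted p = 0.0523 for ELN, 0.0631 for COL1A2, 0.0663 for COL3A1 and 0.206 for DCN), and DCN did not pass without replicate 2 (adjusted p = 0.075). ANXA1, an annexin with anti-inflammatory roles, was no list member and stood at 48 and 75.8 TPM against 346 TPM (log2 2.50, adjusted p = 0.00265).

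Markers of the other cells of the myocardium moved beside these lists, and their part in the results was not tested. Of all tested genes, 2.42% were called higher as deposited and 6.45% after rescaling, and 27.9% lay above the HOPE+NMP range after rescaling. All 6 tested fibroblast markers, 5 of which are matrix genes of the previous list, lay above the HOPE+NMP range after rescaling, with 4 called higher as deposited and 5 after rescaling (medians 1.18 and 2.08). The fibroblast list summed to 2777 TPM in SCS+NMP and to 578 to 1243 TPM in the HOPE+NMP libraries. Of 4 tested macrophage markers, none was called as deposited, nor had an unadjusted p under 0.05, and 3 were called higher after rescaling (medians 0.69 and 1.59). Among them C1QA, a complement chain made by tissue macrophages, stood at 41.1 and 89.3 TPM against 138 TPM. The macrophage list summed to 322 TPM in SCS+NMP and to 150 to 282 TPM in HOPE+NMP.

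Endothelial markers stayed near the shift of all tested genes, of which 51.8% were called lower as deposited and 21% after rescaling. Of 10 tested, 6 were called lower as deposited and 1 after rescaling, the VEGF receptor KDR, at 56.1 and 57.2 TPM in HOPE+NMP 24 h and 13.3 TPM in SCS+NMP (log2 -2.02, and -1.18 after rescaling). The endothelial medians were -1.27 and -0.39, near those of all genes, and the list summed to 385 TPM against 399 to 825 TPM. Of 7 pericyte and smooth muscle markers, 5 were called lower as deposited, and 1 was called each way after rescaling (medians -1.11 and -0.29); the one called lower was DES, which the sarcomere list holds too. The granule gene GNLY was the 1 of 15 T and NK cell markers that was tested, at 5.18 and 13.1 TPM against 35.4 TPM (log2 1.96, adjusted p = 0.0217, and 0.0841 without HOPE+NMP 24 h replicate 1). No neutrophil, B cell, adipocyte or neuronal marker passed the minimum of 10 TPM. The neutrophil list summed to 3.71 TPM in SCS+NMP and to 1.85 to 7.53 TPM in HOPE+NMP, and its defining markers S100A8 and S100A9 were at 0.208 and 0.186 TPM.

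Red cell transcripts had the highest list median. All 3 tested members were called higher both ways (medians 5.34 and 6.48), but 2 of them, HBM and ALAS2, passed the minimum mean only through the libraries in which they were high. HBB, the beta globin gene, on chromosome 9 from 4800683 to 4801941 in Sscrofa11.1, stood at 150 and 103 TPM in HOPE 3 h, 33.8 and 124 TPM in HOPE 24 h, 3086 and 1559 TPM in HOPE 48 h, and 6134 TPM in SCS+NMP. Its log2 difference from HOPE+NMP 24 h was 6.54 ± 0.74 (adjusted p = 0.000607), and the SCS+NMP value was also above both HOPE 48 h libraries. ALAS2, the erythroid enzyme of haem synthesis, stood at 0.236 and 0.981 TPM against 27.2 TPM and reached 38.5 TPM in HOPE 48 h. The HOPE 48 h libraries thus lay between HOPE 24 h and SCS+NMP in HBB and HBM. The same order held in the 2 unnamed abundant genes, whose products were not settled, and in RF00100 (25.1 and 10.4 TPM in HOPE 48 h). Among non-coding entries, RF00100 stood at 3.59 and 6.8 TPM in HOPE+NMP 24 h and at 169 TPM in SCS+NMP (log2 4.83) and RF00009 at 0.33 and 2.06 TPM against 65.2 TPM (log2 5.04, not passing after rescaling, adjusted p = 0.0792). RF00009, too, reached the minimum mean only through the SCS+NMP library.

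The medians of the lists for protein synthesis and hypoxia lay above those of all tested genes (-1.12 as deposited and -0.29 after rescaling). Lower calls made up 51.8% of all tested genes as deposited and 21% after rescaling, and higher calls 2.42% and 6.45%. Of 37 tested cytosolic ribosomal protein genes, 19 were called lower as deposited, and 2 higher and 1 lower after rescaling (medians -0.91 and -0.01). Below the HOPE+NMP range lay 36 of them as deposited and 14 after rescaling, beside 66.5% and 40% of all tested genes. RPL14 was the 1 called lower both ways, at 286 and 161 TPM against 27.5 TPM. Of 11 tested hypoxia-inducible genes, 3 were called lower as deposited, and 2 higher and 2 lower after rescaling (medians -0.77 and 0.05, a sign that depended on the scaling). The members lower both ways were VEGFA, the vascular growth factor, at 192 and 157 TPM against 15.6 TPM (log2 -3.40, adjusted p = 0.0029), and EGLN3, the oxygen-sensing prolyl hydroxylase, at 21.8 and 21.6 TPM against 2.41 TPM. P4HA2, a collagen prolyl hydroxylase, was higher after rescaling only (log2 1.54, adjusted p = 0.0128).

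Antioxidant genes were called lower about as often as tested genes at large. Of 14 tested, 9 were called lower as deposited and 3 after rescaling (medians -1.37 and -0.49), beside 51.8% and 21% of all tested genes. Among those called lower both ways were CAT, catalase, at 68.6 and 85.5 TPM against 16.1 TPM, and the mitochondrial peroxiredoxin PRDX3, at 94.3 and 139 TPM against 17.4 TPM. Of 9 tested cell death regulators, 1 was called higher both ways and 3 lower as deposited (1 after rescaling), with medians of -0.57 and 0.30, again of a sign that depended on the scaling. One of the 9, RIPK3, a kinase of necroptosis, did not pass either way and reached the minimum mean only through the SCS+NMP library. The member called higher was PMAIP1, a pro-apoptotic BH3-only protein, at 25.8 and 13.6 TPM against 48.1 TPM (log2 1.31, adjusted p = 0.0433, and 0.215 without HOPE+NMP 24 h replicate 2), and the one called lower both ways was TNFRSF12A, the receptor of TWEAK, at 1383 and 1295 TPM against 103 TPM (log2 -3.68, adjusted p = 0.00187). Of 12 tested autophagy genes, 6 were called lower as deposited, and 1 higher and 2 lower after rescaling (medians -1.03 and -0.14). MT3, a metallothionein, stood at 89.6 and 109 TPM against 4.97 TPM (log2 -4.07, adjusted p = 0.000357), the largest difference of 3 tested metallothioneins.

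The same contrast before any warm perfusion was read from the 3 SCS and 3 HOPE hearts biopsied in the cold at 24 h, other hearts sequenced with another kit and given in another unit. The authors' values there are counts divided by a size factor. The difference between the cold and the perfused comparison was not tested, and the values are set side by side. In the cold, limma called 109 of 14141 genes (0.771%) higher and 179 (1.27%) lower in SCS, and the median log2 difference over all genes was -0.01. These 24 libraries came from 6 pigs, each biopsied at 4 times, so the libraries in the fit are not independent. With a replicate block by pig (estimated correlation 0.44), limma called 579 higher and 817 lower. In the 6 libraries at 24 h alone, 1 per pig, it called none (1585 higher and 1788 lower at an unadjusted p under 0.05).

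The cold counts also rested on single libraries at 24 h. Without that of pig 1 (SCS), 506 genes were called higher and 877 lower. Without pig 3 the counts were 2 and 1, without pig 5 they were 1 and 0, without pig 2 (HOPE) they were 36 and 44, and without pig 4 they were 1 and 0. Without pig 6 they were 106 and 169, and calls in the cold are given below as those of all 24 libraries.

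Sarcomere genes had a median log2 difference of -0.36 in the cold, with no member called by limma (1 higher and 7 lower of 22 at an unadjusted p under 0.05), and of -3.87 after perfusion and rescaling. The block by pig called 5 of them lower in the cold. TNNI3 stood at 279192 ± 39101 in SCS and 194961 ± 88666 in HOPE (mean ± SD, n = 3 each, log2 0.60, limma adjusted p = 0.377), and TNNT2 at 165749 ± 59731 and 171447 ± 26956 (log2 -0.10, adjusted p = 0.867). The nuclear complex I genes had a median of 0.14 in the cold and -2.50 after perfusion, and the ATP synthase genes 0.11 and -2.55, with no member called in the cold (3 higher and 2 lower of 23, and 1 each way of 6, at an unadjusted p under 0.05). The block by pig called 1 complex I gene each way and 1 ATP synthase gene higher. Tricarboxylic acid cycle genes were at -0.89 and -2.30 and fatty acid genes at -0.67 and -2.48, again with no member called in the cold, where 11 of 16 and 5 of 13 were lower at an unadjusted p under 0.05, and 5 and 2 were called lower with the block by pig. The groups of troponin values overlapped in the cold and did not overlap after perfusion.

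Heat shock chaperones had a median of -0.56 in the cold and 0.80 after perfusion and rescaling. In the cold limma called none of 23, while 15 were lower and none higher at an unadjusted p under 0.05, and 2 were called lower with the block by pig. DNAJB1 stood at 491 ± 60.9 in SCS and 398 ± 60.8 in HOPE in the cold (n = 3 each, log2 0.31 ± 0.19, limma adjusted p = 0.289). HSPH1 stood at 174 ± 29.7 and 323 ± 96.7 (log2 -0.86, adjusted p = 0.134), and HSPA8 at 12347 ± 1406 and 20572 ± 3589 (log2 -0.73, adjusted p = 0.0695). Neither of the last pair passed, and both differences had the opposite sign to those after perfusion.

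Immediate early genes were at 0.06 in the cold and 1.50 after perfusion, interferon-induced genes at 0.47 and 2.33, and extracellular matrix genes at 0.45 and 1.29. In the cold limma called none of 18 immediate early genes (0 higher and 3 lower at an unadjusted p under 0.05) and none of 15 interferon-induced genes (2 higher). It called 1 of 24 matrix genes higher, TIMP1 (adjusted p = 0.0365), with 9 higher at an unadjusted p under 0.05, and none of 6 fibroblast markers (5 higher at an unadjusted p under 0.05). The block by pig called 2 immediate early genes lower, and 1 interferon-induced and 4 matrix genes higher. Cytosolic ribosomal protein genes were at 0.90 in the cold and -0.01 after perfusion. In the cold limma called none of 37, while 35 were higher and none lower at an unadjusted p under 0.05. The block by pig called 29 of these higher, and the 6 libraries at 24 h alone gave none. GNLY was the only tested marker of T and NK cells and was called higher in the cold as well (log2 2.03 ± 0.46, limma adjusted p = 0.0365), but not in the 6 libraries at 24 h alone (adjusted p = 0.0873), at 531, 1094 and 331 in SCS and 221, 92.9 and 135 in HOPE. HBB had the opposite sign in the cold, at 30.4, 54.1 and 71 in SCS and 1892, 89.4 and 254 in HOPE (log2 -2.82 ± 0.86, adjusted p = 0.0716). Every HOPE heart thus held more HBB than every SCS heart in the cold, while after perfusion the SCS library held more than every HOPE library.

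**Figure D5:**
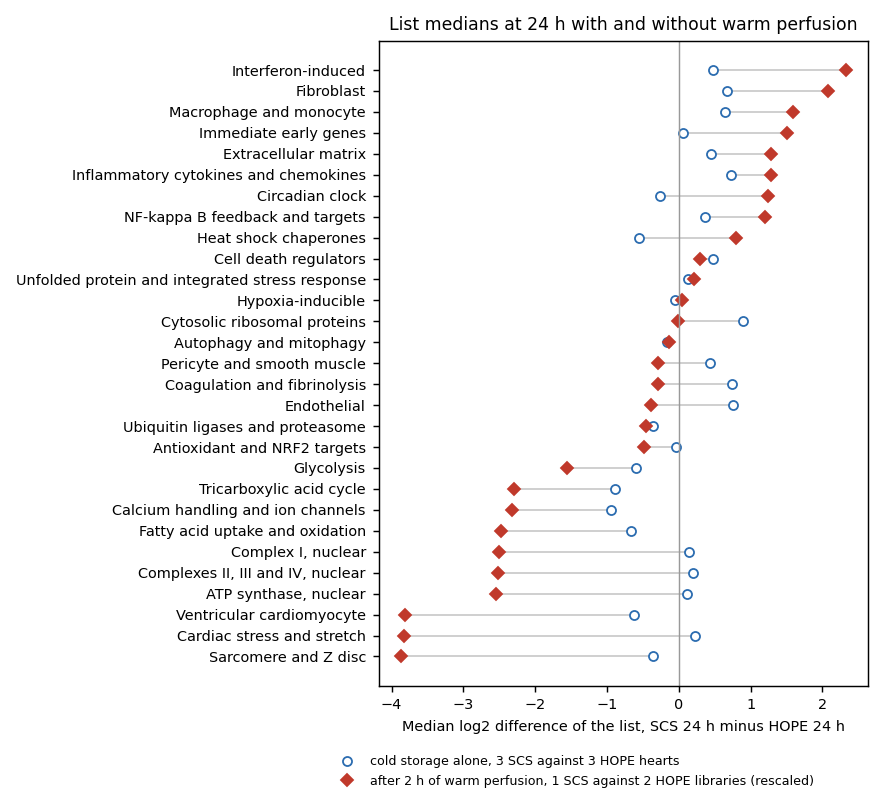
Each row is a gene list with its median log2 difference, SCS 24 h minus HOPE 24 h: open circles for 3 against 3 hearts biopsied in the cold, red diamonds for 1 against 2 libraries after 2 h of warm perfusion, rescaled. The circles lie between -0.94 and 0.90, while the diamonds run from -3.87 for sarcomere genes to 2.33 for interferon-induced genes; hearts, kit and unit differ between the symbols.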

How the data were processed

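The deposited arm 2 values were read as TPM: every column sums to the same total, and the authors had divided reads by gene length and library total. The deposited arm 1 signal is counts that the authors had divided by 1 size factor per library, as the values show. The submitters' processing notes name the Sscrofa11.1 build, STAR 2.5.2b, HISAT2 2.2.1, featureCounts 2.0.6, Trimmomatic 0.36 and DESeq2, with no arm given. Both kits enriched poly(A) RNA, per the labels' protocols; whether reads were counted by strand was not stated there. The arm 2 spike-in was not used here, nor were 11 columns of no sample analysed here.

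Genes with a mean of at least 10 TPM (4388 of 25149; 3362 with a symbol) were fitted as log2(TPM + 1) with limma 3.58.1 (R 4.3.3, group means over 7 libraries, eBayes with a mean trend, 3 residual degrees of freedom, Benjamini-Hochberg threshold 0.05), and arm 1 likewise over 24 libraries from 6 pigs, with alternatives that block by pig or keep only the 6 libraries at 24 h (chosen after seeing the data). The script was tested on simulated data. RefSeq positions were joined by symbol. Near-identical or overlapping genes, such as globin genes, may share reads.

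The comparison and the 27 pathway and 14 marker lists were chosen with earlier results of these data known. Named are the 12 highest and 12 lowest differences outside the HOPE+NMP range both ways, the 10 most abundant genes, up to 5 members of each list and the 10 smallest p each way; list members beyond these were chosen after their values were seen. Alternatives in scaling, minimum, pseudocount, libraries and variance model were run.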

Additional observations from a re-analysis of the deposited data

How the results depend on the processing

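The 6 counts of the report (limma higher and lower, above and below the HOPE+NMP range, at least 2-fold higher and lower than HOPE+NMP 24 h; as deposited 106, 2272, 385, 2916, 161 and 2452) kept the excess of lower genes under the settings tried, of which quantile normalization, the block, the variance model and the choice of libraries in the fit were run for the 2 limma counts only. Rescaling gave 282, 920, 1220, 1751, 501 and 1139. Median-ratio scaling gave 319, 954, 950 above, 445 and 1205, and quantile normalization 420 higher and 499 lower. A minimum mean of 1 TPM gave 198 higher by limma, 1271, 5432, 465 and 4154; a minimum of 30 TPM gave 68, 1177, 175, 1375, 85 and 1207; no minimum gave 329 higher by limma, 2409, 5879, 656 and 4263, the genes tested changing with the minimum. A pseudocount of 10 gave 1517 genes at least 2-fold lower, and a fit of the 3 libraries at 24 h alone 201 higher. Leaving out 1 HOPE library gave 52 to 127 higher and 1201 to 2438 lower by limma, 388 to 431 above, 2920 to 3223 below, and 159 to 170 and 2383 to 2508 at least 2-fold higher and lower. The mitochondrially encoded share was 64.8% without the 2 abundant genes.

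List medians that changed sign were hypoxia (0.05 rescaled), heat shock (0.80 rescaled, 0.72 median-ratio, -0.27 to 0.08 with 1 HOPE 24 h library left out), unfolded protein response (0.21 rescaled, 0.12 median-ratio) and cell death (0.30 rescaled, 0.21 median-ratio). Of 107 named genes, MYL4 turned to 0.04 with quantile normalization and ND4L to 0.00 with median-ratio scaling; for these the cause was not tested. Calls of named genes ended were 21 with no minimum, 11 with quantile normalization (8 were added), 13 and 9 without HOPE+NMP 24 h replicate 1 and 2, 9 with the 6 HOPE+NMP libraries as 1 group, and at most 6 under each other setting. Median-ratio scaling added 12, the most of any setting.

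Chosen after seeing the data, 3 kinds of alternative were run on the cold comparison (109 higher and 179 lower). A replicate block by pig gave 579 and 817, the 6 libraries at 24 h alone 0 and 0, and leaving out 1 of these 6 gave 1 to 506 and 0 to 877. Leaving out members that reached the minimum only through the SCS+NMP library, also chosen after seeing the data, changed the sign of none of the 4 list medians concerned.

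The labels number the HOPE+NMP replicates but not the SCS library, and do not say that a number marks a shared animal or day. With the number as a replicate block, limma called 133 higher and 2391 lower; deviations of same-numbered libraries correlated at 0.09, 0.16 and 0.38.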

Other observations

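Over 3161 tested genes with a RefSeq genomic length, the median log2 difference after rescaling was -0.26, -0.28, -0.23 and -0.30 from the shortest to the longest of 4 groups of equal size.

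Of the 12 genes named as highest in SCS+NMP, 10 had a tested counterpart in the cold libraries, where 7 differences were positive, 3 negative and none passed (median log2 0.51). Of the 12 named as lowest, 10 had a counterpart, with 4 differences positive, 6 negative and none passing (median log2 -0.65). Another gene without a symbol among the 10 most abundant of the SCS+NMP library (ENSSSCG00000018076) stood at 27318 TPM, against 7800 to 12449 TPM in the HOPE+NMP libraries. Its identifier lies between those of the mitochondrially encoded COX1 and COX2, and what it encodes was not settled. The rescaling did not remove it, so rescaled TPM still holds it. As deposited it took 2.73% of the SCS+NMP library and 0.78% and 0.893% of the HOPE+NMP 24 h libraries.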
